A study of Mus musculus with 6 samples.

Results

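The genes described here encode ATP-binding cassette (ABC) transporters, whose transcripts were sequenced from isolated lung endothelial cells of mice. Members were the protein-coding genes of the table whose symbol starts with Abc, a subfamily letter from a to g and a digit, with Abca1, Abcg1 and Abcc1 left out. This gave 37 genes of 18956 in the table, 14266 of them protein-coding, with 10 members in subfamily A, 9 in B, 7 in C, 4 in D, 1 in E, 3 in F and 3 in G. The libraries fell into 2 groups of 3. The libraries of one group were labelled WT and Cre-negative, those of the other CSE-KO and Cre-positive, and the series describes the cells as isolated from WT and CSE-KO mice. CSE is cystathionine gamma-lyase, the enzyme encoded by Cth. The Cre driver, the floxed or deleted part of Cth, any agent given to induce Cre, the age and sex of the mice and whether replicates were separate animals are not stated in the labels.

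ABC proteins share a pair of nucleotide-binding domains that bind and hydrolyse ATP. In most of them this drives a substrate through a membrane, usually out of the cytosol, and the subfamilies differ in what they carry. Subfamily A moves lipids, B holds the multidrug pump P-glycoprotein and several mitochondrial proteins, C exports conjugated and anionic compounds and includes the sulfonylurea receptors of potassium channels, D brings fatty acids into peroxisomes, and G exports sterols and drugs. Members of E and F have no membrane-spanning part and work at the ribosome. In endothelium, ABC pumps are best known from the blood-brain barrier, where they return drugs to the blood.

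Values are normalized counts, read here as read counts divided by a size factor for each library and rounded. Library totals lay between 5698922 and 6052275, and the members together took between 0.236% and 0.238% of the total in WT and between 0.226% and 0.229% in CSE-KO. Changes are log2 fold changes of CSE-KO against WT on the log2(value + 0.5) scale, from limma, and a call needed an adjusted p (Benjamini-Hochberg, over the 13750 tested genes) under 0.05. Cth itself was at 29, 27 and 26 in WT 1 to 3, and its values in CSE-KO 1 to 3 were 49, 43 and 63, which goes against the label, so the groups are named by their labels only. Differences among the 3 WT libraries did not exceed counting noise (index of squared difference over sum between 0.698 and 0.751, where 1 is counting noise), nor did that between CSE-KO 2 and 3 (0.862), while CSE-KO 1 differed from the other CSE-KO libraries by more (1.64 and 1.93). The p-values rest on the spread among these libraries alone, and that spread may be technical. The 10 endothelial markers examined were all present, with summed counts between 15538 and 15849 in WT and between 10509 and 11161 in CSE-KO. Of these, 9 fell, while Emcn (1386 in WT, 1404 in CSE-KO) was not called. Lymphatic endothelial markers summed to between 14886 and 15172 in WT and between 5513 and 7510 in CSE-KO. Of the 6 tested, 5 fell, while Pdpn rose from 924 to 1028. The 14 macrophage markers summed to between 267 and 323 in WT and between 1273 and 1581 in CSE-KO, with Adgre1, Itgam, Marco and Ptprc at 0 in every WT library. The 6 mesothelial markers summed to between 208 and 223 in WT and between 796 and 952 in CSE-KO. Of the macrophage markers 10, and of the mesothelial markers 3, reached the test only through their CSE-KO values. Of the other 4 macrophage markers 3 rose, and Mrc1 (97.0 in WT, 90.7 in CSE-KO) was not called. Mrc1 and Cd68 (114 in WT, 162 in CSE-KO) were the highest macrophage markers in WT. The part of these cell types in the changes below was not tested. In bulk RNA fewer cells of a type and less RNA per cell cannot be told apart.

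Promoter sequences from RefSeq (build GRCm38.p6, which is mm10) were matched by symbol for 29 of the 37 members. Abcc4 and Abca3 are shown because they hold matches to the motifs searched, and Abcb11 and Abcc9 because they had the highest and lowest log2 fold change of the tested members. Each line gives the 250 bases before the start site, 5′ to 3′ on the gene's strand, with the matched bases in capitals (CACGTG and the antioxidant response element in Abcc4, the sterol regulatory element in Abca3, no match in Abcb11 and Abcc9). They lie at chr14:118706220-118706469 (minus strand), chr17:24351773-24352022 (plus strand), chr2:69342617-69342866 (minus strand) and chr6:142702275-142702524 (minus strand), in that order.
Abcc4: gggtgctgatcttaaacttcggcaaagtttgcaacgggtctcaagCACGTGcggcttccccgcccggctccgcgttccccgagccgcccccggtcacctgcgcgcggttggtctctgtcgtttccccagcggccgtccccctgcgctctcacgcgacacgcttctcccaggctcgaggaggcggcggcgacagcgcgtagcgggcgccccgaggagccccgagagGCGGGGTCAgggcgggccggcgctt
Abca3: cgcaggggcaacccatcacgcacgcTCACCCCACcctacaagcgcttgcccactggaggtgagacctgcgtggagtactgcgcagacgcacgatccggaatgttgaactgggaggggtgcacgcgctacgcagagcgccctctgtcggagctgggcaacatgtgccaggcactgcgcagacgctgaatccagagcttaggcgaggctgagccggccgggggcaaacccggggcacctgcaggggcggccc
Abcb11: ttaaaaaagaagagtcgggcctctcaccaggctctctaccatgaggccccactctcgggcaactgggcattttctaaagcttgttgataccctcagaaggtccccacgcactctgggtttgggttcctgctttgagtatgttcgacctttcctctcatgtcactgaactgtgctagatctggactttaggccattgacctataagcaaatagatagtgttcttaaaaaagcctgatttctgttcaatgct
Abcc9: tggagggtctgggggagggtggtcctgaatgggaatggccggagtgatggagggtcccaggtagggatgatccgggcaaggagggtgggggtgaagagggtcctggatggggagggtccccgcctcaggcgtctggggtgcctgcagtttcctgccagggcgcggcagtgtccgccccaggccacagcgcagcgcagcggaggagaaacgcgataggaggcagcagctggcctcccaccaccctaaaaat

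The motifs were searched on both strands in windows from 250 bases before to 50 after the start, and matches of different motifs may share bases. The antioxidant response element (TGACNNNGC), which NRF2 binds, was found in 7 of 35 member promoters and in 12.4% of all 32851 promoters. The 7 were those of Abca8b, Abcb1a, Abcc2 and both promoters each of Abcc4 and Abcc10. In Abcc4 the first base of the element lay at −25 in one promoter and at −23 in the other. The Abcb1a promoter (chr5:8566841-8567140) lies well upstream of the annotated gene start at 8660077. CACGTG, the core of the element of lysosomal genes, was found in Abca8b, Abcc4 and Abcf1, 8.57% of member promoters against 7.15% of all. The sterol regulatory element (TCACNCCAC) was found in Abca3 alone, at −225, and in 1.24% of all promoters. The composite element bound by ATF4 (TGATGNAA) was found in 0 of 35 member promoters and in 3.97% of all. These matches are descriptions of letters and not measured binding sites.

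Of the 37 members, 28 had a normalized count of at least 10 in at least 3 libraries and were tested. Of these, 24 changed (85.7%), against 77.4% of all tested genes, and 14 of the 24 fell while 10 rose (39.0% and 38.3% of all tested genes fell and rose). The groups did not overlap in 25 of the 28 (89.3%), against 80.4% of all tested genes. A fall of at least 2-fold was seen in 9 members (32.1%), against 12.3% of all tested genes, and a rise of at least 2-fold in 1, Abcb11, against 9.93%. Every member is protein-coding. Of the protein-coding tested genes, 80.4% changed, 83.1% had groups that did not overlap and 12.1% fell at least 2-fold. The median log2 fold change was −0.20, and that of all tested genes was 0.0014. Abcb11 entered the test only through its CSE-KO values and Abcc9 only through its WT values. Such entry favours a difference, so both are described below without a test. Of the other 26 tested members 22 changed (84.6%), 9 up and 13 down, with 8 falls of at least 2-fold (30.8%) and 0 rises of that size. Among the 12250 genes left when those tested through 1 group alone are set aside, 77.0% changed and 10.3% fell at least 2-fold. With WT 1 to 3 counted as 1 sample, 21 members were called, and with CSE-KO 2 and 3 counted as 1 sample as well, 19 were. Without CSE-KO 1 the count was again 24, 10 up and 14 down. The calls of Abcf1, Abcb1a, Abca8b and Abcc10 were among those lost in one or the other of those fits.

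**Figure D1:**
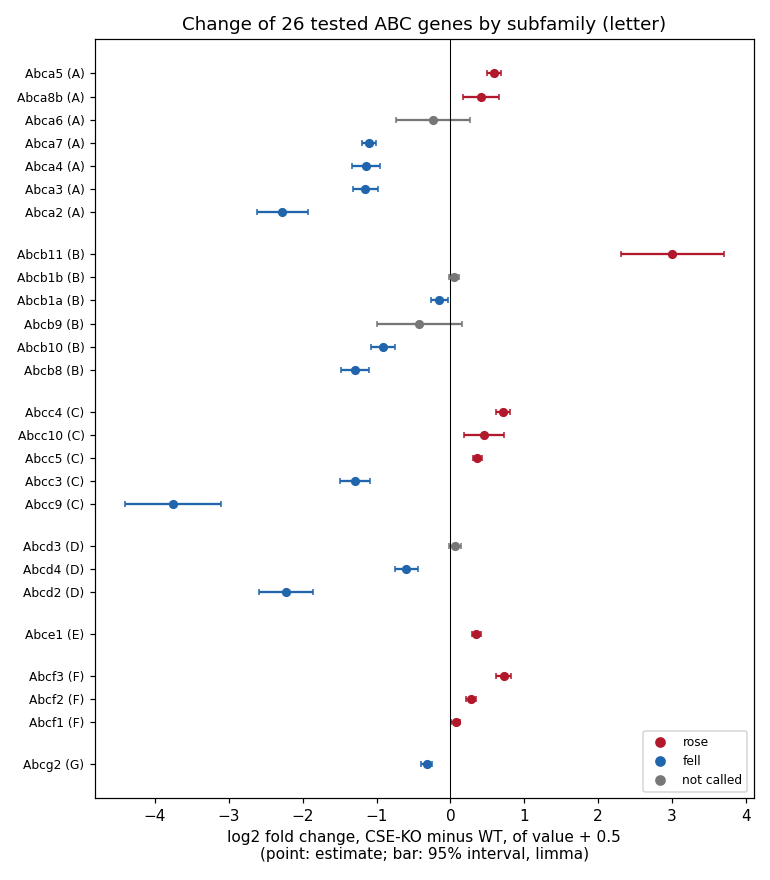
Log2 fold change (CSE-KO minus WT, horizontal axis) of 26 of the tested members, grouped by subfamily letter, with 95% intervals from limma; red rose, blue fell, grey was not called. Subfamily E and F genes lie to the right of 0, Abca2, Abcd2 and Abcc9 lie farthest to the left, and Abcb11 lies farthest to the right. Abcc9 reached the test only through WT and Abcb11 only through CSE-KO, so their colours and intervals are not to be read as test results.

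Subfamily A, the lipid transporters, held 4 called falls of over 2-fold and 2 smaller rises among 7 tested genes. Of all tested genes, 12.3% fell at least 2-fold and 38.3% rose. Abca2 encodes a lipid transporter of endosomes and lysosomes that is abundant in brain. It was at 541, 532 and 549 in the WT libraries, against 140, 107 and 92 in CSE-KO, so that the lowest WT library was far above the highest CSE-KO library. The mean fell from 541 ± 8.50 to 113 ± 24.6 (SD, n = 3), a log2 fold change of −2.28 (SE 0.14, adjusted p = 5.97e-06). Abca2 lies on chromosome 2 from 25428703 to 25448540 (mm10, plus strand). Abca3, which loads surfactant phospholipid into the lamellar bodies of alveolar type II cells, was the most abundant subfamily A member per exonic kilobase in WT, and stood just below Abca5 in CSE-KO (76.0 against 77.3 normalized counts per kilobase). Its counts were 1594, 1559 and 1589 in WT against 793, 650 and 693 in CSE-KO (log2 fold change −1.15, SE 0.07, adjusted p = 6.10e-06). It was thus high in WT libraries in which the surfactant genes Sftpc, Sftpb, Sftpa1 and Sftpd have no row, and the epithelial markers Epcam and Cdh1 stood at 0 or 1. The 6 alveolar epithelial markers with a row, of 12 examined, summed to between 453 and 482 in WT and between 224 and 237 in CSE-KO. Most of that sum was Etv5 (367, 380 and 365 in WT, 202, 176 and 202 in CSE-KO). Hopx and Ager were also lower in CSE-KO on average, while Lamp3, Epcam and Cdh1 were slightly higher but never exceeded 3. The part of alveolar cells in the value of Abca3 was not tested. Abca3 lies on chromosome 17 from 24351950 to 24410201 (plus strand), and 9.75% of its exonic bases are shared with the noncoding gene D330041H03Rik on the opposite strand.

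Abca7, a phospholipid transporter known for its part in phagocytosis, was at 924, 842 and 937 in WT against 429, 414 and 417 in CSE-KO, with a log2 fold change of −1.10 (SE 0.04) and the smallest adjusted p of the members, 2.97e-09. Abca4, the retinoid-lipid transporter of photoreceptors, was at 232, 248 and 283 in WT against 120, 110 and 114 in CSE-KO (log2 fold change −1.14, adjusted p = 2.82e-07). Both were lower in every CSE-KO library than in any WT library.

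The subfamily A genes that rose belong to one cluster on chromosome 11. Abca5, a transporter of late endosomes and lysosomes (110269369 to 110337716, minus strand), was at 565, 627 and 567 in WT against 861, 910 and 882 in CSE-KO. Its mean rose 1.51-fold, from 586 ± 35.2 to 884 ± 24.6 (log2 fold change 0.59, SE 0.04, adjusted p = 2.57e-07). Abca8b, which has been tied to cholesterol export, was at 84, 81 and 75 against 96, 105 and 120 (log2 fold change 0.41, adjusted p = 0.00543). The groups did not overlap in either gene. Reads of Abca8b could be split with its near copy Abca8a, which has no row, and its call was lost when the WT libraries were counted as 1 sample (adjusted p = 0.0658). Abca6, from the same cluster, stood at 27.3 ± 2.08 and 23.7 ± 6.66 with overlapping groups and was not called (log2 fold change −0.24, 95% interval −0.74 to 0.27). Abca9, also of that cluster, was below the filter, at 7, 14 and 12 in WT against 4, 5 and 2 in CSE-KO.

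In subfamily B the plasma membrane pumps differed from one another. Rodents carry a pair of genes, Abcb1a and Abcb1b, for P-glycoprotein, the multidrug pump of barrier endothelium. Abcb1b was at 823, 839 and 794 in WT against 848, 840 and 848 in CSE-KO and was not called (log2 fold change 0.05, 95% interval −0.02 to 0.11). It was called upward with equal totals (adjusted p = 0.00310) and with upper-quartile scaling (adjusted p = 0.00110), so its call depends on the scaling. Abcb1a was at 413, 401 and 441 against 383, 390 and 354 and fell by 0.16 on the log2 scale (adjusted p = 0.0178), a call lost with equal totals (adjusted p = 0.176), without WT 3 (0.0849) and without CSE-KO 3 (0.0740). Abcb1b was the more abundant of the pair per exonic kilobase in both groups (102 ± 2.85 against 76.3 ± 3.75 normalized counts per kilobase in WT). The log2 ratio of Abcb1a to Abcb1b went from −0.97 ± 0.11 to −1.17 ± 0.08, without overlap (exact permutation test, two-sided, p = 0.1, the smallest that 3 against 3 libraries allow). Reads of 75 bases from stretches that these closely related genes share could be split between them. How much they share was not measured, so each value is uncertain. Of the exonic bases of Abcb1a, 10.1% are also shared with Gm42686 on the opposite strand.

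Abcb11, the bile salt export pump of hepatocytes, had the highest log2 fold change of the tested members. Its counts were 6, 13 and 5 in WT against 61, 58 and 69 in CSE-KO, a 7.83-fold higher mean (8.0 ± 4.36 against 62.7 ± 5.69, n = 3, log2 fold change 3.01). Even so, it remained a low gene, at 12.2 ± 1.10 normalized counts per exonic kilobase in CSE-KO, below 22 other members. It lies on chromosome 2 from 69238282 to 69342616 (minus strand). Nr1h4, the bile acid receptor that drives this gene in liver, was at 1, 1 and 3 in WT against 2, 5 and 2 in CSE-KO and was not tested.

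Mitochondrial members of subfamily B fell. Abcb8, a protein of the inner membrane tied to iron handling and potassium transport, was at 346, 337 and 354 in WT against 164, 133 and 128 in CSE-KO (log2 fold change −1.29, SE 0.09, adjusted p = 1.64e-07). Abcb10, which supports haem synthesis and protects against oxidative stress, was at 414, 410 and 433 against 253, 203 and 213 (log2 fold change −0.91, SE 0.08, adjusted p = 1.13e-06). Abcb10 shares 10.3% of its exonic bases with Gm45890 on the opposite strand. In Abcb8 and Abcb10 CSE-KO 1 stood above CSE-KO 2 and 3 and still well below WT. Abcb9, a lysosomal peptide transporter, was at 39, 21 and 38 against 20, 22 and 29, with overlapping groups, and was not called (log2 fold change −0.42, 95% interval −1.0 to 0.16). Without WT 2 it was called, at −0.71 (adjusted p = 0.0175).

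Of 21 tested enzymes and carriers of haem and iron-sulfur synthesis, which work beside these proteins, 8 rose and 7 fell, or 38.1% and 33.3%, near the 38.3% and 39.0% of all tested genes, with a median log2 fold change of −0.01. The mitochondrial iron importer Slc25a37 rose from 755 to 1072 and the glycine carrier Slc25a38 from 202 to 311. Cpox, an enzyme of haem synthesis, rose from 274 to 362. The adjusted p of these genes was at most 1.65e-05.

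**Figure D2:**
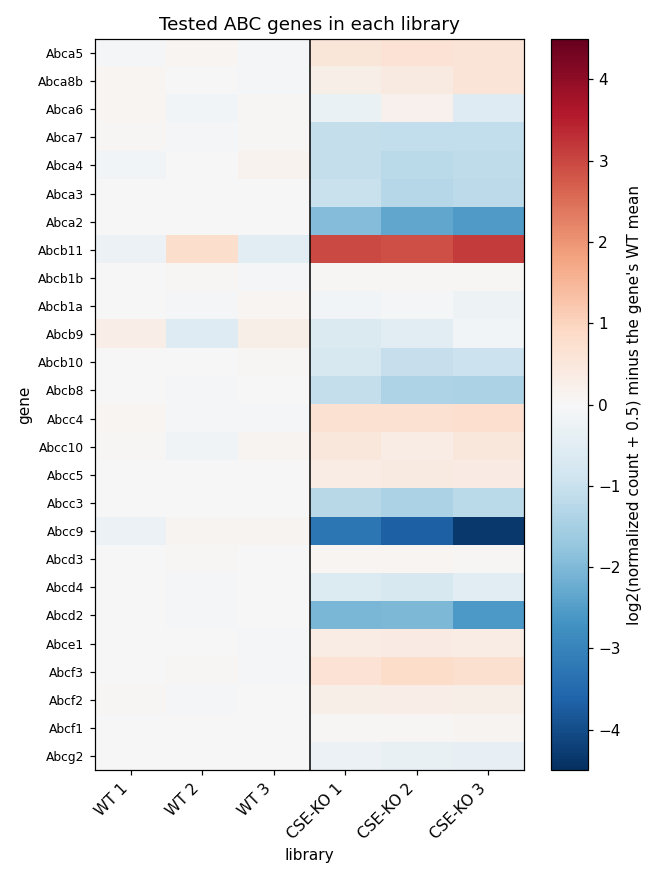
Value of 26 tested members in each library as log2(normalized count + 0.5) minus the gene's WT mean, with rows for genes and columns for libraries. WT columns are near 0 apart from low genes such as Abcb11 and Abcb9, and CSE-KO 1 is paler than CSE-KO 2 and 3 in rows such as Abca2 and Abcc9.

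In subfamily C the exporters of organic anions rose in 3 of 4 tested genes, where 38.3% of all tested genes rose. Abcc4, which exports cyclic AMP, prostaglandins and conjugates, was at 468, 427 and 428 in WT against 705, 710 and 742 in CSE-KO. Its mean rose 1.63-fold, from 441 ± 23.4 to 719 ± 20.1 (log2 fold change 0.71, SE 0.04, adjusted p = 6.88e-08), and the groups lay far apart. It is the gene on chromosome 14 from 118482692 to 118706219 (minus strand) whose promoter is printed above. Abcc5, an exporter of cyclic nucleotides and folates, was at 1155, 1121 and 1137 against 1418, 1502 and 1467 (log2 fold change 0.36, SE 0.03, adjusted p = 3.46e-07). The ratio of Abcc4 to Abcc5 rose by 0.34 on the log2 scale, without overlap between the groups (exact permutation test, two-sided, p = 0.1). Abcc10, an exporter of lipophilic drugs, was at 66, 56 and 68 against 89, 80 and 91 (log2 fold change 0.45, adjusted p = 0.00518). Abcc1, which is outside this set, rose too, from 1249 to 1832.

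Abcc3, an exporter of bile acids and glucuronides, went the other way. It was at 175, 171 and 172 in WT against 72, 64 and 75 in CSE-KO (log2 fold change −1.29, SE 0.09, adjusted p = 2.22e-07). The enzymes that make conjugates for these exporters were tested in 18 cases. Of the 15 that did not rest on 1 group to be tested, 4 rose and 6 fell (26.7% and 40.0%), against 37.3% and 39.7% of all genes counted in that way. Glutathione transferase Gsta3 went from 5, 4 and 6 to 88, 85 and 79 and reached the test only through CSE-KO, while Gsta4 rose from 14, 18 and 20 to 84, 92 and 78 (adjusted p = 4.27e-07). Leukotriene C4 synthase, Ltc4s, whose product is exported by Abcc1, was at 71, 79 and 56 in WT and reached the test only through those values, with 11, 12 and 5 in CSE-KO. Ugt1a7c, a glucuronosyltransferase, rose from 36.3 to 71.3.

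Abcc9 had the lowest log2 fold change of the tested members. It encodes SUR2, the regulatory subunit of ATP-sensitive potassium channels in smooth muscle, pericytes and heart, and is itself no exporter. Its counts were 59, 77 and 77 in WT against 7, 5 and 3 in CSE-KO, from 71.0 ± 10.4 to 5.00 ± 2.00, or 14.2-fold lower (SD, n = 3, log2 fold change −3.76). It lies on chromosome 6 from 142587862 to 142702315 (minus strand). Kcnj8 encodes Kir6.1, the pore that assembles with SUR2 in vessels. It was at 186, 185 and 175 in WT against 20, 11 and 9 in CSE-KO (log2 fold change −3.80), and it too reached the test only through WT, so it is given with no test. The CSE-KO values of both genes lay below every WT value. The other subunits, Abcc8 and Kcnj11, have no row. Among markers of mural cells, which express this channel, Rgs5, Higd1b and Cox4i2 have no row. Pdgfrb (78, 80 and 70 in WT, 36, 36 and 29 in CSE-KO) and Cspg4 (23, 24 and 22 against 1, 3 and 2) were lower in CSE-KO. Acta2 (257, 271 and 249 against 605, 626 and 651) and Des (15, 14 and 13 against 153, 169 and 216) were higher. Of 9 tested mural markers, 3 reached the test through 1 group alone, Cspg4 among them, and of the other 6, 4 rose and 2 fell. The part of these cells in the values of Abcc9 was not tested.

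**Figure D3:**
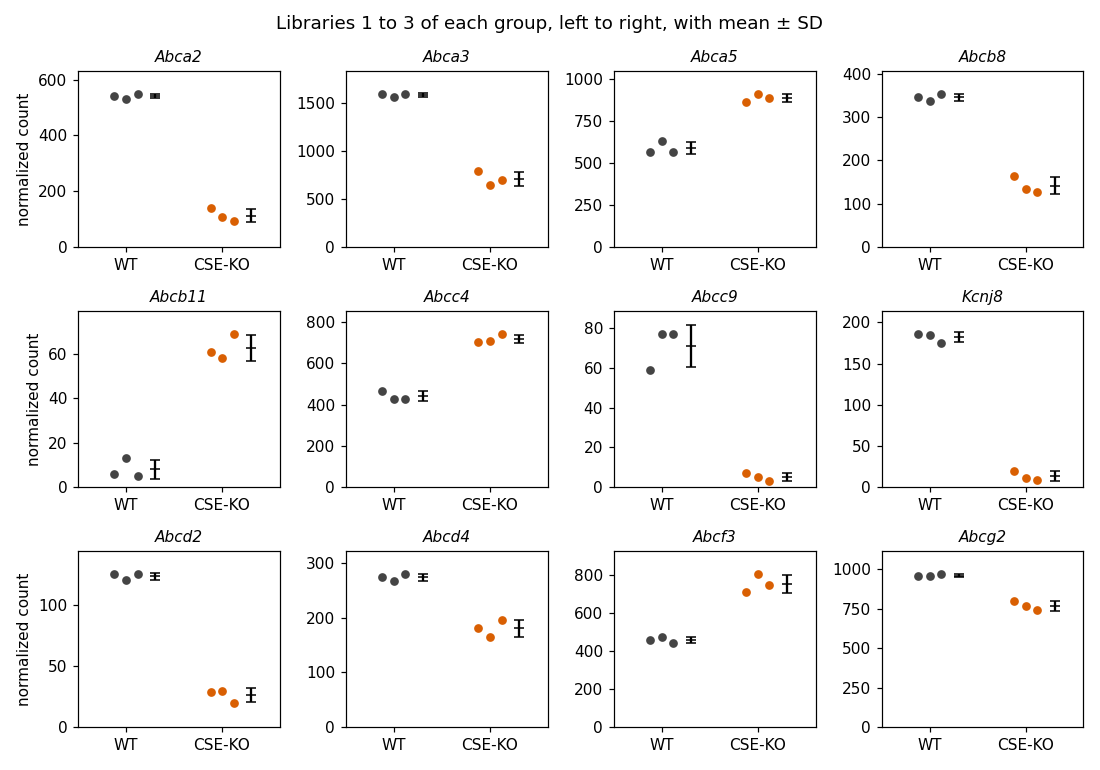
Normalized counts of 12 genes in the 3 WT (grey) and 3 CSE-KO (orange) libraries, with mean ± SD (n = 3) beside the points, on axes that start at 0. The groups are apart in each panel, with Abcc9 and its channel partner Kcnj8 near 0 in CSE-KO.

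Among the peroxisomal transporters of subfamily D, Abcd2 fell and Abcd3 was not called. Abcd2, which carries very long-chain fatty acids into peroxisomes, was at 125, 120 and 125 in WT against 29, 30 and 20 in CSE-KO, and each CSE-KO library lay far below every WT library. The mean went from 123 ± 2.89 to 26.3 ± 5.51 (SD, n = 3), 4.68-fold lower (log2 fold change −2.23, SE 0.16, adjusted p = 2.79e-07). It lies on chromosome 15 from 91145871 to 91191799 (minus strand).

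Abcd3, which encodes the abundant peroxisomal membrane protein that imports branched fatty acids and bile acid precursors, was not called. Its counts were 571, 603 and 572 in WT against 611, 615 and 597 in CSE-KO, with overlapping groups (log2 fold change 0.06, 95% interval −0.01 to 0.14). With equal totals it was called upward at 0.14 (adjusted p = 0.00475). Abcd4, which despite its subfamily works in lysosomes, where it releases vitamin B12, was at 274, 266 and 279 against 180, 165 and 196 (log2 fold change −0.60, SE 0.07, adjusted p = 1.24e-05). The ratio of Abcd3 to Abcd4 was higher in every CSE-KO library, by 0.66 on the log2 scale (exact permutation test, two-sided, p = 0.1).

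Among 16 tested partners in peroxisomal import and oxidation, 4 rose and 8 fell, where 38.3% and 39.0% of all tested genes rose and fell, and the median log2 fold change was −0.09. Acox3, an oxidase that handles branched chains, fell from 505 to 315. Hsd17b4, which takes the next steps of the pathway, fell from 655 to 515. Pex16, a factor that brings proteins to the peroxisomal membrane, rose from 110 to 212. The adjusted p of these genes was at most 2.15e-06.

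The members without membrane-spanning parts, in subfamilies E and F, rose in 4 of 4, where 38.3% of all tested genes rose. Per exonic kilobase they held the top 4 ranks in CSE-KO, while in WT Abcf3 stood below Abca3 and Abca7. Abce1, which splits ribosomes into subunits after termination, was at 1202, 1192 and 1151 in WT against 1497, 1525 and 1502 in CSE-KO (log2 fold change 0.35, SE 0.02, adjusted p = 2.12e-07). Abcf3 was at 457, 473 and 443 against 711, 805 and 746, a 1.65-fold rise and the largest of the 4 (log2 fold change 0.72, SE 0.05, adjusted p = 1.15e-07). Its counterpart in yeast, GCN20, helps pass the signal of amino acid shortage to the kinase GCN2. The groups were well apart in both genes.

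Abcf2 was at 868, 816 and 830 in WT against 1015, 1025 and 1017 in CSE-KO (log2 fold change 0.28, adjusted p = 5.17e-06). Abcf1, which binds the initiation factor eIF2 and ribosomes, was at 1110, 1096 and 1115 against 1140, 1154 and 1194, a rise of only 0.07 (adjusted p = 0.0289). That call was lost without any 1 of the WT libraries (adjusted p between 0.0514 and 0.0886) and without CSE-KO 3 (0.111). The ratio of Abcf1 to Abcf2 fell by 0.21 on the log2 scale, without overlap between the groups (exact permutation test, two-sided, p = 0.1). Over the 5 ratios of related genes examined, the adjusted p was 0.1 for each.

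Of 13 tested partners at the ribosome and in amino acid sensing, 8 rose and 4 fell (61.5% and 30.8%, against 38.3% and 39.0% of all tested genes), with a median log2 fold change of 0.16. Impact, an inhibitor of GCN2 activation, rose from 341, 336 and 312 to 1018, 1112 and 1137 (log2 fold change 1.72, adjusted p = 3.82e-10). Eif2ak4, which encodes GCN2, fell from 637 to 407, and Gcn1, the protein that activates it, from 1507 to 1180. Pelo and Hbs1l, which open stalled ribosomes together with Abce1, both rose, from 114 to 159 and from 598 to 636 (adjusted p = 0.000398 and 0.0260). Ankzf1, which acts in the quality control of stalled chains, rose from 228 to 357. Eif2d and Ltn1, from the same list, fell from 590 to 442 and from 1107 to 936 (adjusted p = 2.77e-06 and 0.000112).

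Abcg2, the broad drug and urate exporter, was the tested member of subfamily G. It was at 956, 955 and 970 in WT against 798, 768 and 740 in CSE-KO, from 960 ± 8.39 to 769 ± 29.0 (log2 fold change −0.32, SE 0.03, adjusted p = 3.48e-06), with no overlap. It lies on chromosome 6 from 58584523 to 58695676 (plus strand). The sterol exporters left out of the set, Abca1 and Abcg1, fell from 3336 to 789 and from 850 to 277.

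Among 12 tested nuclear receptors and factors known to act on transporter genes, 2 rose and 8 fell (16.7% and 66.7%, against 38.3% and 39.0% of all tested genes). Nr1h3, which encodes the sterol sensor LXR alpha, was at 286, 281 and 322 in WT against 99, 76 and 68 in CSE-KO (log2 fold change −1.88, adjusted p = 6.15e-07). Its partner Rxra fell from 893 to 495 and the lipid sensor Pparg from 478 to 296. Hif1a, the oxygen-regulated factor, rose from 1107 to 1419. Nr1h2, which encodes LXR beta, was at 613 and 602 and was not called (95% interval of the log2 fold change −0.10 to 0.04). Whether these factors acted on the members was not tested.

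Per exonic kilobase, the order of the members differed between the groups. In WT the highest were Abcf2 (326 ± 10.5 normalized counts per kilobase), Abcf1 (251 ± 2.23), Abce1 (197 ± 4.5), Abca3 (169 ± 2.02) and Abca7 (133 ± 7.63). Abcf3, at 129 ± 4.22, was within the spread of Abca7. In CSE-KO the first 3 were the same genes, followed by Abcf3 (212 ± 13.4), Abcc5 (137 ± 3.95) and Abcc4 (113 ± 3.14), and Abcf1 (264 ± 6.35) and Abce1 (251 ± 2.49) came nearer to each other. Abca3 moved from rank 4 to rank 12 and Abca7 from 5 to 14, while Abcc4 moved from 16 to 6 and Abca5 from 18 to 10. Summed over its members, subfamily A went from between 449 and 464 per kilobase in WT to between 253 and 268 in CSE-KO. Subfamily F went from between 699 and 718 to between 853 and 887, and subfamily C from between 219 and 229 to between 270 and 281. The sum over all 37 members was lower in every CSE-KO library, at 2350 to 2382 in WT and 2250 to 2260 in CSE-KO, but the groups overlapped once each sum was divided by its library total.

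**Figure D4:**
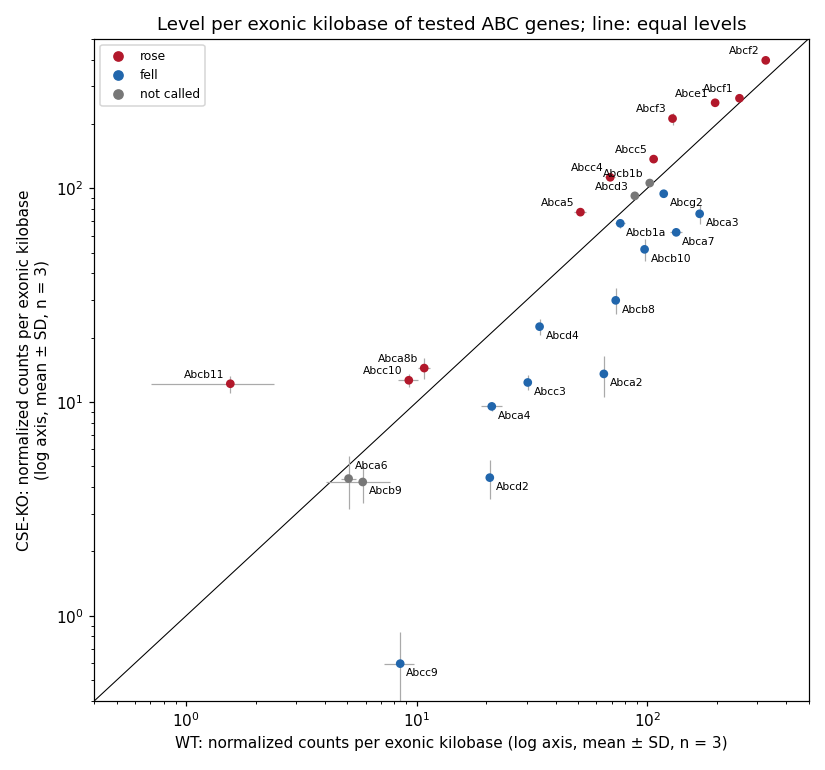
Mean ± SD (n = 3) of normalized counts per exonic kilobase in WT (horizontal) and CSE-KO (vertical) of 26 tested members, on log axes with the line of equal levels. Subfamily E and F genes sit at the upper right above the line, and Abcc9, Abcd2 and Abca2 lie far below it.

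CSE-KO 1 was the CSE-KO library nearest to WT in 17 of the 24 changed members, against 58.0% of all changed genes. Its value was the highest of the 3 in 9 of the 14 members that fell and the lowest in 8 of the 10 that rose. The share over all changed genes was not computed for either count, so neither is read as particular to the members.

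The 9 members below the filter never exceeded 23. Abcb6, a porphyrin transporter, was at 6, 9 and 8 in WT against 6, 13 and 23 in CSE-KO, and 55.2% of its exonic bases are shared with Gm29253 on the same strand. Abca9 (7, 14 and 12 against 4, 5 and 2) and Abcb4, which moves phosphatidylcholine into bile (7, 14 and 12 against 6, 5 and 4), were lower in each CSE-KO library than in any WT library. The exporter Abcc2 was listed at 0 in WT, and its CSE-KO values were 5, 2 and 3. Abca14, Abca17, Abcc12, Abcg3 and Abcg4 stayed at or below 8. A further 10 annotated genes of the rule (Abca8a, Abca12, Abca13, Abca15, Abca16, Abcb5, Abcc6, Abcc8, Abcg5 and Abcg8) have no row and were not analysed here.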

How the data were processed

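RNA was sequenced in 6 libraries. Per the labels' protocols, a stranded mRNA kit was used on 300 ng of total RNA, and reads were single-end and 75 bp long. DESeq2 1.26.0, featureCounts 1.6.5, STAR 2.7.3a, Trimmomatic 0.39 and Picard 2.21.7 are listed, without roles, per the submitters' processing notes, as is build mm10. The deposited table holds a whole-number score per gene and library. No header states its unit. It was read as a normalized count because recomputed size factors lay between 1.003 and 1.008 and up to 4 whole numbers from 1 to 199 were never used in a library. Counting by strand and the treatment of reads that map to several genes are not stated there.

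The fit took genes that reached 10 in 3 or more libraries and was made with limma 3.58.1 in R 4.3.3 on log2(value + 0.5), with group as the only term, a mean trend and robust variances, two-sided, and the step was checked on simulated data. Exonic lengths and overlaps came from GENCODE mouse release 21. Related pairs were compared by exact permutation tests of their log2 ratio. Values per library and full statistics were given for tested members with a mean of at least 50 in either group or an absolute log2 fold change of at least 1, and members below that, and list genes beyond the 4 with the smallest adjusted p, were picked with their values in view. The members, lists, motifs and promoters were chosen with earlier results of these data known. Alternatives covered scaling, filter, pseudocount, variance model, a fold threshold, leaving out libraries, counting like libraries as 1 sample and the replicate block. Some genes that enter the counts are not reported here by name.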

Additional observations from a re-analysis of the deposited data

How the results depend on the processing

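No tested member changed direction under any of the 19 alternatives run. The number of members changed, 24, lay between 19 and 27 in all of them except the test against a fold of 1.2, where 17 were called, and the number that rose went from 10 to 6 in that test, whose threshold sets small changes aside. All tested genes called fell from 10639 to 6711 in the same test. Leaving out 1 library at a time gave between 22 and 24 changed members, between 9 and 10 that rose and between 13 and 15 that fell. Over all tested genes, the median log2 change became 0.08 with equal totals and 0.10 with upper-quartile scaling, and both gave 12 rises and 12 falls, with Abcb1b and Abcd3 gained and Abcb1a among the calls lost. With no filter, 27 of 37 members were called. Deviations of same-numbered libraries from their group means were uncorrelated (−0.00, 0.02 and 0.01). This cannot decide whether the replicates were paired, because the WT libraries differed by no more than counting noise. The fit with the replicate block called 24 members. The depth limits the 9 members below the filter and low genes such as Abca6 and Abcb9, whose intervals are wide. The highest count per exonic base of a member was 0.399, in Abcf2.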
